A study of Homo sapiens with 12 samples.

Results

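The circadian clock genes described here are 10 genes, chosen by name: the PAR bZIP factors DBP and TEF, the period genes PER1, PER2 and PER3, the cryptochromes CRY1 and CRY2, the REV-ERB receptors NR1D1 and NR1D2, and the repressor BHLHE40. They were taken by symbol from RNA sequencing counts of 56832 genes, and all 10 passed the filter on low counts that left 14549 genes for testing. The cells were MDA-MB-468, a basal-like human breast cancer line. They carried, stably, either a pCDH vector for thyroid hormone receptor beta (pCDH-TRB, the TRB cells) or the empty vector (pCDH-EV, the EV cells). All cells were first starved of hormone for 24 hours in phenol-red free medium with charcoal-stripped serum. They then received the thyroid hormone T3 at 10 nM, or its NaOH vehicle, for a further 24 hours. Vector and treatment made 4 groups with 3 libraries each, 12 in all. The labels name 1 stable population per vector and do not say whether it is a clone or which promoter drives the receptor, so a difference between TRB and EV cells is a difference between those populations. Nothing in the labels ties the 3 libraries of a group to separate cultures, and so the p-values reflect the spread among libraries that may be technical repeats. The time of day at harvest was not given in the sources used here, and each group was sampled at 1 time, so levels and not rhythms were measured.

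The mammalian clock is a loop of transcription and repression that runs in most cells. CLOCK or NPAS2 pairs with BMAL1 (gene ARNTL) and binds E-boxes in the promoters of the period, cryptochrome, REV-ERB and DBP genes. The PER and CRY proteins then block that pair, while REV-ERB repressors and ROR activators compete for response elements in ARNTL and other genes. DBP, TEF and HLF activate D-box genes, which the repressor NFIL3 also binds, and BHLHE40 and BHLHE41 compete for E-boxes. In breast tissue and breast cancer cells the loop is known to run with altered strength, and serum, hormones and glucocorticoids shift it in culture. The REV-ERB genes each lie near a thyroid hormone receptor gene, NR1D1 beside THRA and NR1D2 beside THRB.

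Gene counts per library ran from 4241863 to 11955825, and the 6 T3 libraries were the 6 deepest. MT-RNR1 and MT-RNR2, the mitochondrial ribosomal RNAs, took 0.0502% to 0.0900% of gene counts in T3 libraries and 0.326% to 2.68% in vehicle libraries. Depth and this share both split the libraries by treatment. Library handling and T3 therefore cannot be told apart on these measures or in a comparison of T3 with vehicle libraries. Genes said below to be raised or lowered by T3 are those that differed between T3 and vehicle libraries. The least alike libraries of a group were EV vehicle replicates 1 and 2, and replicate 1 was also the shallowest. THRB, the receptor gene carried by the vector, averaged 43.4 CPM (counts scaled to a common library size) in EV vehicle, 38.5 in EV T3, 140 in TRB vehicle and 329 in TRB T3 libraries. Vector reads and reads of the cell's own THRB cannot be separated in these counts. Of the markers of a basal-like line, EGFR averaged between 4274 and 5515 CPM, PGR had no count, and KRT5 averaged 224 CPM in TRB T3 libraries and 900 to 1158 CPM in the other groups. A list of 6 leukocyte markers summed to 17.6 to 21.7 CPM in TRB vehicle, 182 to 194 in TRB T3, 28.2 to 32.7 in EV vehicle and 49.8 to 52.8 in EV T3 libraries. Nearly all of that sum was CD14, while LYZ and HBB were at 0 in all 12 libraries and PTPRC did not pass 0.498 CPM in any. The 6 fibroblast markers summed to 14.6 to 21.4 CPM over all libraries, almost all of it COL1A1, with COL1A2, DCN and LUM at 0, and the 4 endothelial markers to 3.91 to 6.65 CPM. In bulk RNA, fewer cells of a type and less RNA per cell cannot be told apart.

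The promoters of 5 of the members, DBP, PER1, PER2, NR1D1 and NR1D2, are printed from RefSeq (GRCh38.p14) to show where searched motifs lie. Each window runs from 250 bases before the start site to 50 after it, 5′ to 3′ on the gene's own strand, and capitals mark matches to a searched motif. DBP is at chr19:48637330-48637629, minus strand, PER1 at chr17:8152355-8152654, minus strand, and PER2 at chr2:238288561-238288860, minus strand. NR1D1 is at chr17:40100540-40100839, minus strand, and the second of 2 listed windows of NR1D2 at chr3:23945871-23946170, plus strand.
DBP: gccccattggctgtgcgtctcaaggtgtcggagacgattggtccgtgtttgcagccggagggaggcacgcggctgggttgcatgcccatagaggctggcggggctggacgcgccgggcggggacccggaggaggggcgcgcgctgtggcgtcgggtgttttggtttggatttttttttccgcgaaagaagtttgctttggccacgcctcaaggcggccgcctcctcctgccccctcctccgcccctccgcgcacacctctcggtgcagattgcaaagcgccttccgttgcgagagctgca
PER1: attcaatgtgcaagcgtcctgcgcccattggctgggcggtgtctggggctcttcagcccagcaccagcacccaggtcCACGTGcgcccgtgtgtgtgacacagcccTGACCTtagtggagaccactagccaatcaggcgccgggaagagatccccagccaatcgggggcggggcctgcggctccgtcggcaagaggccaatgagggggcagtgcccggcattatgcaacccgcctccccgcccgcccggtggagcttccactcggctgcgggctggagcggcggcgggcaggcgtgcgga
PER2: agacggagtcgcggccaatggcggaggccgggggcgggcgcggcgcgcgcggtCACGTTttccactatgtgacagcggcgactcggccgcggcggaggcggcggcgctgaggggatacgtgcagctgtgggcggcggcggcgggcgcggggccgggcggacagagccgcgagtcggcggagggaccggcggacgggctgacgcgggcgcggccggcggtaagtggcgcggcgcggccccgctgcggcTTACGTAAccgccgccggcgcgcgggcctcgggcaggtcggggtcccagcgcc
NR1D1: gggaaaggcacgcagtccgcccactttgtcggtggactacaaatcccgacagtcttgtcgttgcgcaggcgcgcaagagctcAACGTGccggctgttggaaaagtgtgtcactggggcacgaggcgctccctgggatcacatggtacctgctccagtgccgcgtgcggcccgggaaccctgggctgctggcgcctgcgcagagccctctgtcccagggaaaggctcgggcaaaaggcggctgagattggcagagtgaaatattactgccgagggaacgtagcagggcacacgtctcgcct
NR1D2: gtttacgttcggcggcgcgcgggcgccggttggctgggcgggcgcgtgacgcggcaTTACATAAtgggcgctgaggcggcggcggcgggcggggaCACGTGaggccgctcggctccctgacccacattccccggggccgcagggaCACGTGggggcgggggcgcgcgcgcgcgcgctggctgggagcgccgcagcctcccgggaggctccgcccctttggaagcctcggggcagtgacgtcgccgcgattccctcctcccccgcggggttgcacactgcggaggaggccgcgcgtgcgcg
The motifs were searched on both strands: the E-box CACGTG, the E-prime box CACGTT, the D-box TTATGTAA or TTACGTAA, the nuclear receptor core AGGTCA and the cAMP element TGACGTCA. Of 35116 promoter windows of the same length, 7.26% held the E-box, 5.34% the E-prime box, 1.01% the D-box, 13.8% the receptor core and 1.85% the cAMP element. PER1 had an E-box at -173 and a receptor core at -144, counted from the start site. PER2 had an E-prime box at -197 and a D-box at -3, and NR1D1 an E-prime box at -168. NR1D2 had E-boxes at -155 and -105 and a D-box at -194. No searched motif matched in the DBP window or in the first NR1D2 window, which says only that these letters are not in that stretch. Among the other members, TEF and BHLHE40 held an E-box, CRY1 an E-prime box, PER3 a D-box in 1 of 2 windows, and CRY2 a receptor core in both of its windows and an E-prime box in the second. These matches describe sequence and do not show that a factor bound there.

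T3 in TRB cells raised DBP, PER2, NR1D1 and BHLHE40 and lowered PER1 and NR1D2, while TEF, PER3, CRY1 and CRY2 did not pass the test. That is 4 of 10 higher and 2 of 10 lower at an adjusted p below 0.05 (edgeR's quasi-likelihood test with Benjamini-Hochberg adjustment), against 22.4% of all genes tested higher and 21.9% lower. These shares are of the same order as the background, and nothing particular to the clock genes is read from them. Their median log2 fold change was 0.02, and the median of its size was 0.27, beside 0.20 over all genes tested. In EV cells T3 raised 1 of 10, DBP, and lowered 0, against 2.84% of all genes higher and 1.7% lower. At an unadjusted p below 0.05 the edgeR test gave 3 higher and 0 lower in EV cells. The share of all genes at that looser cutoff is not given here, so nothing is read from those counts. DESeq2 at its adjusted threshold gave 1 and 0, against 249 and 131 of 14549 genes tested. The call of NR1D1 is the least firm of these and is described with its gene below.

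Between the vectors without T3, 0 of 10 were higher and 1 of 10, BHLHE40, was lower in TRB cells, against 7.86% and 7.4% of all genes (1143 and 1077, which became 758 and 804 without EV vehicle replicate 3). At an unadjusted p below 0.05 these were 3 higher and 2 lower, again with no share of all genes at that cutoff to set beside them. DESeq2 called 0 and 1, against 724 and 809 of 14549 genes tested. When TRB vehicle replicate 3, TRB T3 replicate 1 or 3, or any 1 EV vehicle library was left out, 2 members were called, the added one being NR1D2, PER3, TEF or DBP. Under these settings 758 to 1209 of all genes were higher and 804 to 1126 lower, of 14567 to 14929 tested. With T3 present, PER2, PER3 and NR1D1 were higher and PER1, CRY1 and NR1D2 lower in TRB than in EV cells, 3 and 3 of 10, against 21% and 19.7% of all genes. The T3 response itself was compared between the vectors as an interaction term, TRB minus EV. It was more positive in TRB cells for DBP, NR1D1 and BHLHE40 and more negative for PER1 and NR1D2, 3 and 2 of 10, against 12.3% and 11.6% of all genes. The comparisons share libraries with each other, so their counts are not independent.

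**Figure D1:**
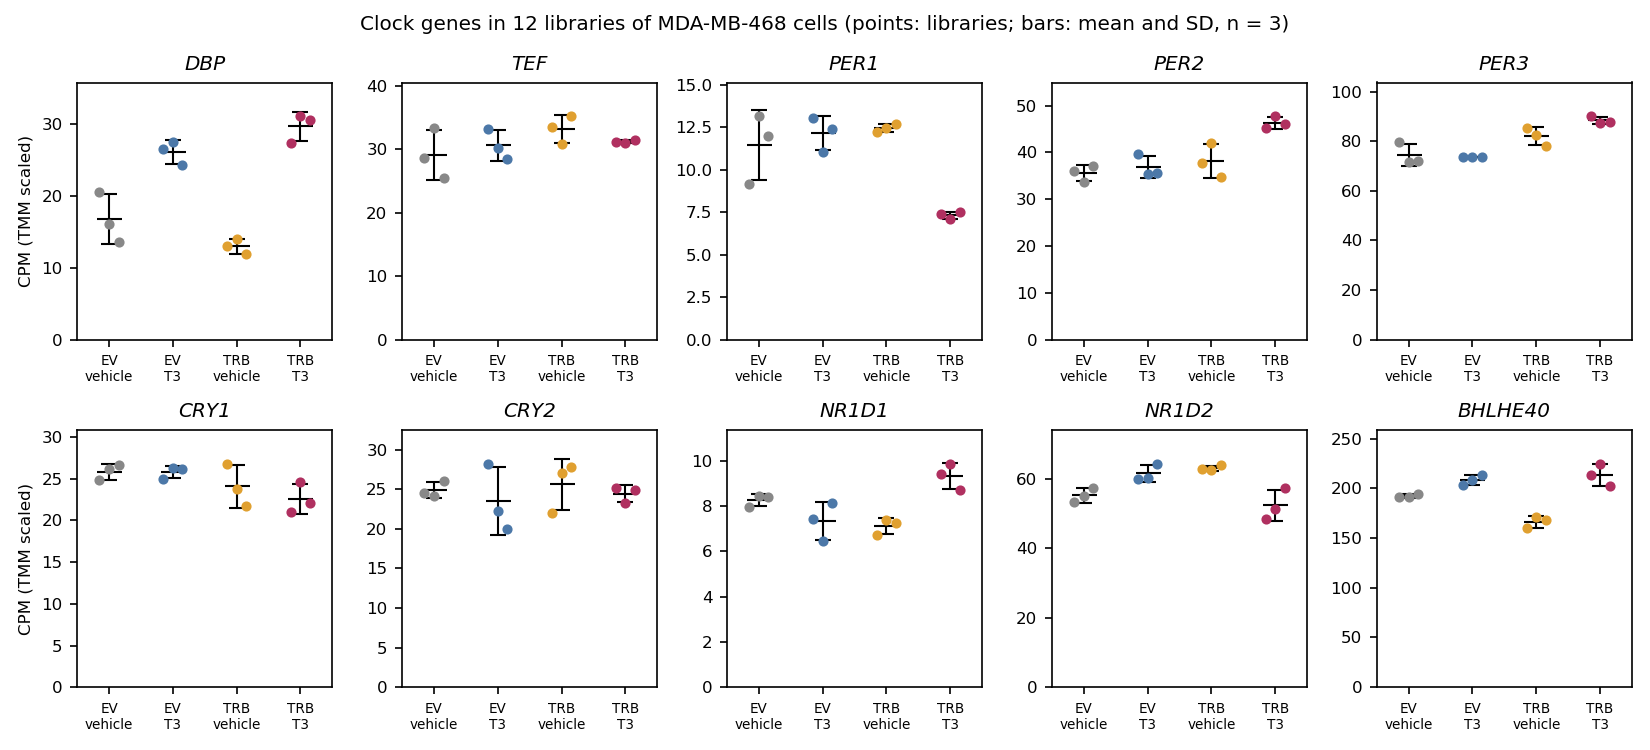
Level of each clock gene in CPM (y axis, from 0, scaled by TMM library factors) in the 4 groups (x axis), with a point for each of 3 libraries and bars for the mean and SD. DBP is higher in both T3 groups, PER1 is low in the TRB T3 group alone at 7.32 CPM on average, and the CRY2 libraries overlap in all 4 groups.

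DBP, a D-box activator that is among the strongest rhythmic outputs of the clock, had the widest range of group means, 1.18 on the log2 CPM scale. DBP (ENSG00000105516.10, chromosome 19, 48630030 to 48637438, minus strand) stood at 20.5, 16.1 and 13.6 CPM in the EV vehicle libraries and at 26.5, 27.5 and 24.2 CPM in the EV T3 libraries. In TRB cells it stood at 13.0, 14.0 and 11.9 CPM with vehicle and at 27.3, 31.1 and 30.5 CPM with T3. All 6 T3 libraries lay above all 6 vehicle libraries. The groups ran from TRB vehicle (13.0 ± 1.06 CPM, SD, n = 3) through EV vehicle (16.7 ± 3.45) and EV T3 (26.1 ± 1.68) to TRB T3 (29.6 ± 2.01), and within each treatment the vectors overlapped. T3 raised DBP 2.27-fold in TRB cells (log2 fold change 1.18, SE 0.0991, edgeR adjusted p = 7.93e-17). In EV cells the rise was 1.62-fold (log2 fold change 0.69, SE 0.104, edgeR adjusted p = 1.99e-06). The difference of the 2 responses was 0.49 on the log2 scale (SE 0.149, edgeR adjusted p = 0.00957). Without EV vehicle replicate 1, which had the highest DBP of its group, that difference was 0.36 and missed the threshold (edgeR adjusted p = 0.0856), and without replicate 2 it was 0.50 (adjusted p = 0.0217). Between the vectors DBP missed the threshold without T3 (log2 difference -0.31, edgeR adjusted p = 0.0916) and with T3 (0.19, adjusted p = 0.0553). The first passed with EV vehicle replicate 3 left out (-0.46, edgeR adjusted p = 0.0214). The second passed without TRB T3 replicate 1, EV T3 replicate 2 or EV vehicle replicate 1 (0.18 to 0.24, adjusted p = 0.0281 to 0.0491), and with a trend over GC content removed (0.22, adjusted p = 0.0187). DBP shares 661 exonic bases, 10.1% of its own, with SPHK2 on the other strand. SPHK2, a sphingosine kinase gene, had a log2 fold change of 0.27 with T3 in TRB cells (edgeR adjusted p = 0.0344) and 0.15 in EV cells (adjusted p = 0.564), smaller than those of DBP. A strand setting for the counting was not given in the sources used here, and reads from that stretch cannot be assigned.

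TEF, a D-box activator of the same family as DBP, did not follow it. TEF (chromosome 22, 41367333 to 41399326, plus strand) averaged 29.2 ± 3.95 CPM in EV vehicle, 30.7 ± 2.43 in EV T3, 33.2 ± 2.18 in TRB vehicle and 31.2 ± 0.197 in TRB T3 libraries (SD, n = 3), and neighbouring groups overlapped throughout. Its log2 fold change with T3 was -0.09 in TRB cells (95% interval -0.24 to 0.07, edgeR adjusted p = 0.395) and 0.08 in EV cells (interval -0.09 to 0.25, adjusted p = 0.734). These intervals exclude a change of the size seen for DBP in either kind of cell. Between the vectors without T3 its log2 difference was 0.19 (edgeR adjusted p = 0.151), and 0.31 without EV vehicle replicate 2 (adjusted p = 0.0332).

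The 3 period genes, whose proteins form the repressor complex with the cryptochromes, went different ways. PER1 (ENSG00000179094.15, chromosome 17, 8140472 to 8156506, minus strand) is the period gene best known for rapid induction by hormones and growth factors. It stood at 9.14, 13.1 and 11.98 CPM in EV vehicle and at 13.0, 11.05 and 12.4 CPM in EV T3 libraries. The TRB vehicle libraries stood at 12.2, 12.4 and 12.7 CPM and the TRB T3 libraries at 7.37, 7.09 and 7.51 CPM. The 3 TRB T3 libraries were the lowest of the 12, below the lowest EV vehicle library, and the other 3 groups overlapped one another. T3 lowered PER1 1.698-fold in TRB cells (log2 fold change -0.76, SE 0.129, edgeR adjusted p = 8.79e-07). In EV cells the log2 fold change was 0.05 (95% interval -0.20 to 0.30, edgeR adjusted p = 0.902). The responses differed by -0.81 (SE 0.181, edgeR adjusted p = 0.000286). The difference also passed without EV vehicle replicate 1 (-0.72, adjusted p = 0.00213) and without replicate 2 (-0.91, adjusted p = 0.000213). With counts thinned to equal depth the log2 fold change in TRB cells was -0.97 and past the threshold.

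PER2, an essential period gene in which loss disrupts rhythms, was highest in TRB cells with T3. PER2 (ENSG00000132326.11, chromosome 2, 238244038 to 238290102, minus strand) stood at 36.1, 33.6 and 37.1 CPM in EV vehicle and 39.6, 35.4 and 35.7 CPM in EV T3 libraries. It stood at 37.7, 42.1 and 34.8 CPM in TRB vehicle and 45.2, 47.8 and 46.0 CPM in TRB T3 libraries. The TRB T3 libraries did not overlap any other group, and the other 3 groups overlapped in order. T3 raised PER2 1.21-fold in TRB cells (log2 fold change 0.27, SE 0.0688, edgeR adjusted p = 0.000811) and left a log2 fold change of 0.05 in EV cells (interval -0.11 to 0.20, adjusted p = 0.837). The difference of the responses, 0.22, did not pass the test (edgeR adjusted p = 0.114), so a TRB-dependent response of PER2 was not shown. It passed without TRB vehicle replicate 2 (0.31, adjusted p = 0.0333), the library with the highest PER2 of its group.

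PER3, a period gene that is not required for rhythms, differed between the vectors in the presence of T3. PER3 (ENSG00000049246.14, chromosome 1, 7784320 to 7845177, plus strand) stood at 79.7, 71.7 and 71.9 CPM in EV vehicle and at 73.7 CPM in each of the 3 EV T3 libraries. It stood at 85.4, 82.6 and 78.01 CPM in TRB vehicle and at 90.1, 87.4 and 87.6 CPM in TRB T3 libraries. The TRB T3 libraries lay above all others, and TRB vehicle overlapped EV vehicle. With T3 present PER3 was 1.199-fold higher in TRB than in EV cells (log2 difference 0.26, SE 0.0482, edgeR adjusted p = 5.89e-06). Without T3 the log2 difference was 0.15 and missed the threshold (edgeR adjusted p = 0.0557), as did the T3 effect in TRB cells, 0.11 (adjusted p = 0.0774). Without TRB vehicle replicate 1 that T3 effect was 0.14 and passed (edgeR adjusted p = 0.0472). Removing a trend over GC content also took it past the threshold (0.12, edgeR adjusted p = 0.0299). The vector difference without T3 passed without TRB vehicle replicate 3 (0.18, adjusted p = 0.0399) and without EV vehicle replicate 1 (0.19, adjusted p = 0.0296). PER3 shares 1350 exonic bases, 16.7% of its own, with genes on the other strand, of which UTS2 had no count in any library.

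CRY1 and CRY2, the cryptochromes that hold the CLOCK and BMAL1 pair in check, did not pass the test for T3 in either kind of cell. CRY1 (chromosome 12, 106991364 to 107093829, minus strand) averaged 25.8 ± 0.953 CPM in EV vehicle, 25.8 ± 0.715 in EV T3, 24.1 ± 2.56 in TRB vehicle and 22.6 ± 1.85 in TRB T3 libraries (SD, n = 3). CRY2 (chromosome 11, 45847118 to 45883248, plus strand) averaged 24.9 ± 0.987, 23.5 ± 4.26, 25.6 ± 3.22 and 24.4 ± 1.03 CPM in the same order. Neighbouring groups overlapped for both genes. For T3 in TRB cells the log2 fold change was -0.10 for CRY1 (95% interval -0.27 to 0.08, edgeR adjusted p = 0.384) and -0.07 for CRY2 (interval -0.26 to 0.12, adjusted p = 0.578). With T3 present CRY1 was lower in TRB than in EV cells by a log2 difference of -0.20 (SE 0.0795, edgeR adjusted p = 0.0421). That call ended when any 1 of TRB T3 replicates 1 and 3 or EV T3 replicates 2 and 3 was left out (log2 difference -0.19 to -0.15, edgeR adjusted p = 0.081 to 0.186), under DESeq2 (adjusted p = 0.136), with no filter (0.0546) and with thinned counts (0.0806).

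**Figure D2:**
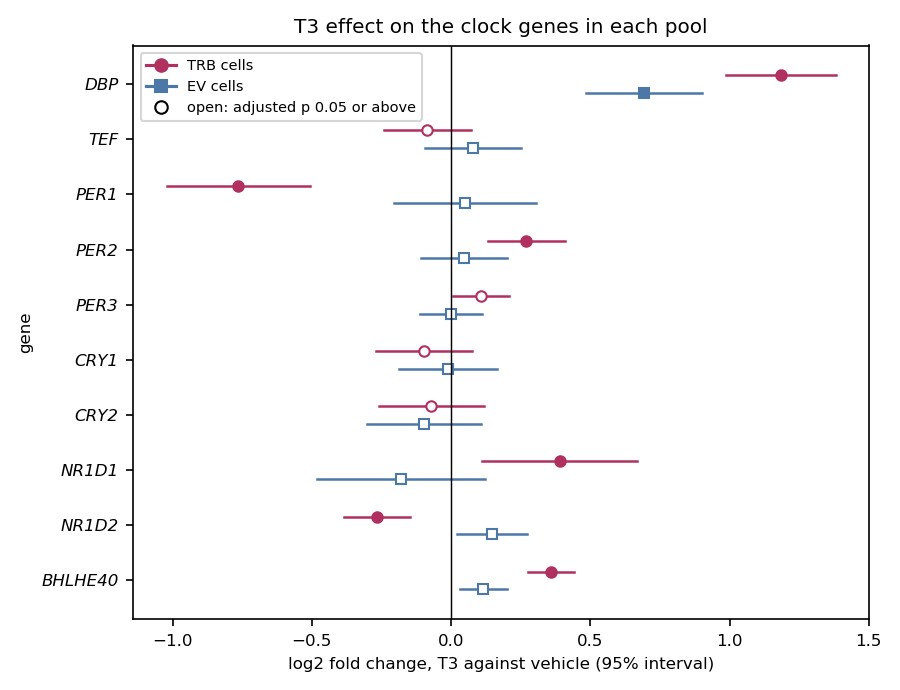
Log2 fold change of T3 against vehicle for each clock gene (x axis; 95% intervals as lines) in TRB cells (circles) and EV cells (squares), filled where the edgeR adjusted p is below 0.05. DBP is to the right in both kinds of cell, at 1.18 and 0.69, and PER1 stands at -0.76 in TRB cells and 0.05 in EV cells.

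The 2 REV-ERB genes, which encode heme-binding repressors of ARNTL, moved in opposite directions with T3 in TRB cells. NR1D2, or REV-ERB beta (ENSG00000174738.12, chromosome 3, 23945260 to 23980618, plus strand), stood at 53.2, 55.1 and 57.5 CPM in EV vehicle and 59.9, 60.3 and 64.4 CPM in EV T3 libraries. In TRB cells it stood at 62.7, 62.4 and 63.8 CPM with vehicle and at 48.5, 51.2 and 57.3 CPM with T3. The TRB T3 libraries all lay below the TRB vehicle libraries, whereas the EV T3 libraries all lay above the EV vehicle libraries. T3 lowered NR1D2 1.203-fold in TRB cells (log2 fold change -0.27, SE 0.0598, edgeR adjusted p = 0.000153). In EV cells the log2 fold change of 0.15 did not pass the test (edgeR adjusted p = 0.204). The responses differed by -0.41 (SE 0.0871, edgeR adjusted p = 0.000127), and by -0.40 without EV vehicle replicate 1 (adjusted p = 0.000671) or replicate 2 (adjusted p = 0.000800). Without T3 the difference between the vectors, 0.18, sat near the threshold (edgeR adjusted p = 0.0550) and passed it when TRB T3 replicate 1 (adjusted p = 0.0494) or replicate 3 (adjusted p = 0.0425) was left out. NR1D2 and THRB lie 136.5 kb apart on chromosome 3 in RefSeq and share no exonic bases.

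NR1D1, or REV-ERB alpha, was among the members with the fewest reads. NR1D1 (ENSG00000126368.5, chromosome 17, 40092787 to 40100725, minus strand) had 33, 54 and 66 counts in EV vehicle, 77, 74 and 98 in EV T3, 51, 66 and 53 in TRB vehicle and 110, 110 and 100 in TRB T3 libraries. Scaled for depth, these were 7.94, 8.45 and 8.41 CPM in EV vehicle and 7.42, 6.44 and 8.13 CPM in EV T3 libraries. They were 6.70, 7.39 and 7.24 CPM in TRB vehicle and 9.43, 9.88 and 8.73 CPM in TRB T3 libraries. The TRB T3 libraries were the 3 highest of the 12, and the other groups overlapped in order. The log2 fold change with T3 in TRB cells was 0.39 (SE 0.140, edgeR adjusted p = 0.0180). In EV cells it was -0.18 (95% interval -0.48 to 0.12, edgeR adjusted p = 0.617), and the responses differed by 0.57 (SE 0.207, adjusted p = 0.0347). The T3 effect in TRB cells missed the threshold under DESeq2 (adjusted p = 0.0793), with counts thinned to equal depth (0.30, adjusted p = 0.274), and without TRB vehicle replicate 1 (0.35, adjusted p = 0.0694) or TRB T3 replicate 2 (0.35, adjusted p = 0.0635). The difference of the responses was lost under DESeq2 (adjusted p = 0.130), with no filter (0.0870), with thinned counts (0.0971) and when any 1 of 6 libraries was left out: TRB vehicle replicate 1, TRB T3 replicates 1 and 2, EV vehicle replicates 2 and 3, and EV T3 replicate 2 (0.48 to 0.56, edgeR adjusted p = 0.0550 to 0.105). With T3 present, the difference between the vectors, 0.35 (edgeR adjusted p = 0.0237), was lost under the same 3 settings (adjusted p = 0.0650 to 0.218) and without TRB T3 replicate 1 or 2 or EV T3 replicate 2 (0.26 to 0.34, adjusted p = 0.0581 to 0.155).

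THRA, which encodes thyroid hormone receptor alpha, runs antisense to NR1D1 and their gene bodies overlap. By the GENCODE annotation 263 exonic bases are shared, 9.49% of NR1D1 and 3.78% of THRA, and reads from that stretch could have been given to either gene or to neither. Reads that matched more than 1 gene were 2.15% to 2.54% of alignments per library. THRA averaged 14.8 ± 0.768 CPM in EV vehicle, 13.2 ± 1.03 in EV T3, 17.5 ± 1.36 in TRB vehicle and 6.66 ± 0.235 in TRB T3 libraries (SD, n = 3). T3 lowered THRA in TRB cells by a log2 fold change of -1.39 (edgeR adjusted p = 3e-16), and in EV cells its log2 fold change was -0.16 (adjusted p = 0.555). The NR1D1 to THRA ratio of counts within a library was 0.562 ± 0.0470 in EV vehicle, 0.561 ± 0.0976 in EV T3, 0.408 ± 0.0513 in TRB vehicle and 1.41 ± 0.122 in TRB T3 libraries. The counts of the overlapping pair thus went apart in TRB cells with T3, with THRA carrying most of the change, and the part of the shared stretch in either count was not tested.

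**Figure D3:**
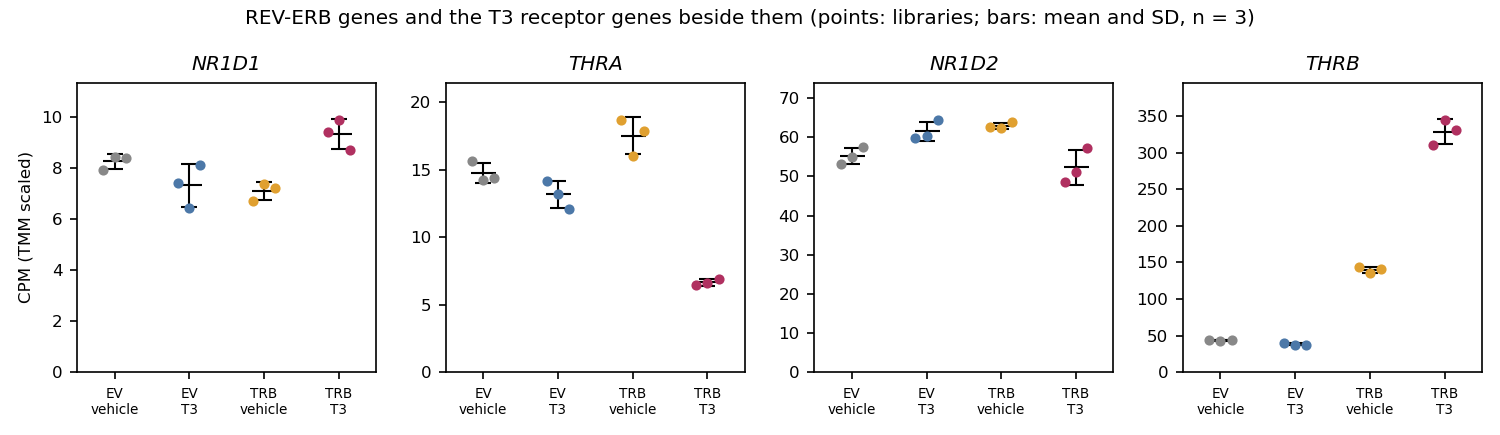
Levels in CPM (y axis, from 0) of the REV-ERB genes NR1D1 and NR1D2 and the thyroid hormone receptor genes that lie beside them, THRA and THRB, in the 4 groups (points: libraries; bars: mean and SD, n = 3). In TRB T3 libraries NR1D1 is at its highest group mean, 9.34 CPM, and THRA at its lowest, 6.66 CPM.

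BHLHE40, an E-box repressor that answers to many signals besides the clock, had the most counts of the members. BHLHE40 (ENSG00000134107.4, chromosome 3, 4979116 to 4985323, plus strand) stood at 191, 191 and 194 CPM in EV vehicle and 204, 208 and 213 CPM in EV T3 libraries. It stood at 160, 171 and 168 CPM in TRB vehicle and 213, 225 and 202 CPM in TRB T3 libraries. TRB vehicle lay below EV vehicle and EV vehicle below EV T3, each with no overlap, and EV T3 and TRB T3 overlapped. T3 raised BHLHE40 1.28-fold in TRB cells (log2 fold change 0.36, SE 0.0418, edgeR adjusted p = 3.14e-11). In EV cells the log2 fold change of 0.12 did not pass (95% interval 0.03 to 0.20, edgeR adjusted p = 0.117), and the responses differed by 0.24 (SE 0.0599, adjusted p = 0.0012). Without T3 it was lower in TRB than in EV cells (log2 difference -0.21, SE 0.0451, edgeR adjusted p = 0.00041), and with T3 the log2 difference was 0.03 (interval -0.04 to 0.11, adjusted p = 0.527). The difference of the responses was 0.24 without EV vehicle replicate 1 (adjusted p = 0.00323) and 0.25 without replicate 2 (adjusted p = 0.00217).

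Levels of different genes can be set side by side only after scaling by length. The length used was that of all annotated exonic bases of a gene, 6.544 kb for DBP. It can exceed the length of any single transcript, so the order of genes is approximate. Per kilobase of exon, BHLHE40 was the highest of the members, at 43.4 to 55.6 CPM per kilobase over the group means. NR1D2 stood at 8.99 to 10.8 CPM per kilobase, NR1D1 at 2.57 to 3.37, DBP at 1.98 to 4.53 and PER1 at 1.05 to 1.78. On that length PER1 was the lowest member in every group.

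The other genes of the clock were taken as lists by role, of which 30 genes were reported and 28 passed the filter; RORB and FBXL21 had no count in any library. T3 in TRB cells raised 9 and lowered 7 of these 28, against 22.4% and 21.9% of all genes tested. In EV cells it raised 0 and lowered 1, against 2.84% and 1.7% of all genes. The responses differed upward for 6 and downward for 3, against 12.3% and 11.6%. In EV cells 2 were higher and 2 lower at an unadjusted p below 0.05 by the edgeR test, with no share of all genes at that cutoff given. DESeq2 called 0 in either direction, against 249 and 131 of 14549 genes tested. Between the vectors without T3, 1 was higher and 3 lower in TRB cells, against 7.86% and 7.4% of all genes. With T3 present 9 were higher and 6 lower, against 21% and 19.7%. Nothing particular to these lists is read from the counts. The count without T3 fell from 4 to 1 without TRB vehicle replicate 3, to 2 without EV vehicle replicate 2 and to 0 without EV vehicle replicate 3. Calls over all genes fell as well, from 1143 higher and 1077 lower to 916 and 930, 827 and 858, and 758 and 804 in the same order. As with the members, the T3 calls in TRB cells went in both directions within most roles.

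Among the 4 activators, T3 in TRB cells raised ARNTL, which encodes BMAL1, and lowered NPAS2, the partner that can stand in for CLOCK. ARNTL averaged 16.03 ± 0.512 CPM in TRB vehicle and 22.2 ± 1.49 in TRB T3 libraries (log2 fold change 0.47, edgeR adjusted p = 3.2e-05). NPAS2 averaged 31.1 ± 2.59 and 21.5 ± 2.47 CPM in the same groups (log2 fold change -0.54, edgeR adjusted p = 2.87e-07). The other two activators did not pass the test. CLOCK had a log2 fold change of -0.02 (edgeR adjusted p = 0.792) and ARNTL2, a second BMAL gene, of -0.003 (adjusted p = 0.981). In EV cells NPAS2 was the 1 gene called, with a log2 fold change of -0.26 (edgeR adjusted p = 0.0454), and it was lost in 11 of 20 alternatives, 7 of which left out 1 library. Without EV vehicle replicate 3 it was -0.17 (edgeR adjusted p = 0.512), and the other 6 (TRB vehicle replicate 1, TRB T3 replicates 1 and 2, EV vehicle replicate 2, EV T3 replicates 2 and 3) gave -0.27 to -0.24 (adjusted p = 0.0522 to 0.178). The difference of the T3 responses did not pass the test for any of the 4 activators.

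RORA, an activator at the elements that REV-ERB represses, was barely detected, with 5, 5 and 4 counts in TRB vehicle and 16, 13 and 16 in TRB T3 libraries (log2 fold change 1.14, edgeR adjusted p = 0.0245). That call was lost under DESeq2 (adjusted p = 0.118), with no filter on low counts (0.0567), and when TRB vehicle replicate 2 or 3 or TRB T3 replicate 1 or 3 was left out (edgeR adjusted p = 0.0576 to 0.0836).

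**Figure D4:**
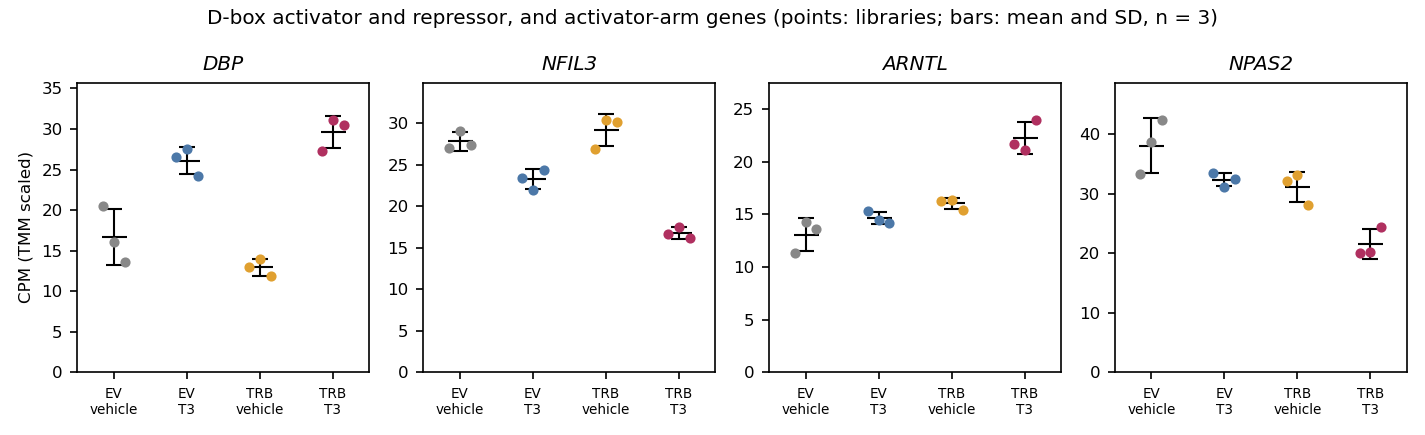
Levels in CPM (y axis, from 0) of DBP, of NFIL3 (the repressor at the same D-box) and of ARNTL and NPAS2 from the activating arm, in the 4 groups (points: libraries; bars: mean and SD, n = 3). In TRB T3 libraries DBP averages 29.6 CPM and NFIL3 16.8 CPM, whereas in TRB vehicle libraries they average 13.0 and 29.2 CPM.

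The D-box repressor NFIL3 fell with T3 in TRB cells, where DBP rose. NFIL3 averaged 27.8 ± 1.14 CPM in EV vehicle, 23.3 ± 1.19 in EV T3, 29.2 ± 1.92 in TRB vehicle and 16.8 ± 0.684 in TRB T3 libraries (SD, n = 3). Its log2 fold change with T3 was -0.80 in TRB cells (edgeR adjusted p = 1.75e-12) and -0.26 in EV cells, where it did not pass (adjusted p = 0.0726), and the responses differed by -0.54 (adjusted p = 0.000378). HLF, the third PAR bZIP activator, averaged 5.52 ± 0.486 CPM in TRB vehicle and 7.67 ± 0.390 CPM in TRB T3 libraries. Its log2 fold change of 0.48 (edgeR adjusted p = 0.0116) was lost under DESeq2 (adjusted p = 0.0743), with thinned counts (0.143) and without TRB vehicle replicate 2 (0.42, adjusted p = 0.075). HLF was higher in TRB than in EV cells both without T3 (log2 difference 0.82, edgeR adjusted p = 0.00595) and with T3 (1.203, adjusted p = 5.5e-09). Leaving out EV vehicle replicate 3 ended the first call (0.76, edgeR adjusted p = 0.0558), and the T3 responses of HLF differed by 0.38, which did not pass (adjusted p = 0.380). The other E-box repressors, BHLHE41 and CIART, did not move with T3 in TRB cells beyond the spread, with log2 fold changes of 0.06 (edgeR adjusted p = 0.56) and -0.05 (adjusted p = 0.798).

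Of 12 tested genes listed as regulators of PER and CRY, T3 in TRB cells raised 3 and lowered 4, against the 22.4% and 21.9% of all genes. The smallest p-values were those of CSNK1D, a casein kinase that marks PER for destruction (log2 fold change 0.42, edgeR adjusted p = 1.49e-14), and GSK3B, a kinase acting on several clock proteins (0.43, adjusted p = 4.47e-14). CSNK1D shares 1856 exonic bases, 16.8% of its own, with genes on the other strand, and reads from there cannot be assigned. TIMELESS, which has its best known role at replication forks, fell (-0.43, edgeR adjusted p = 5.75e-11). In EV cells these 3 genes did not pass the test, with log2 fold changes of 0.13, 0.07 and 0.02, although CSNK1D passed there without EV T3 replicate 3 (adjusted p = 0.0274) or TRB T3 replicate 3 (adjusted p = 0.0462) and with thinned counts (adjusted p = 0.0244). The responses differed by 0.29, 0.36 and -0.46, each past the threshold.

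Of 7 clock output genes, T3 in TRB cells raised 3 and lowered 1, against the same 22.4% and 21.9% of all genes. KLF10, a transcription factor gene driven by BMAL1 that also answers to TGF-beta, went from 30.03 ± 2.63 to 64.6 ± 3.30 CPM (log2 fold change 1.10, edgeR adjusted p = 3.76e-23). POR, the electron donor of microsomal P450 enzymes, went from 91.2 ± 3.10 to 157 ± 7.54 CPM (0.78, edgeR adjusted p = 1.08e-23). NAMPT, the rate-limiting enzyme of NAD salvage, went from 117 ± 5.90 to 152 ± 0.398 CPM (0.37, edgeR adjusted p = 2.14e-10). In EV cells the log2 fold changes of the 3 genes were 0.11, 0.12 and -0.03 and did not pass, and the responses differed by 0.99, 0.66 and 0.40, each past the threshold.

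**Figure D5:**
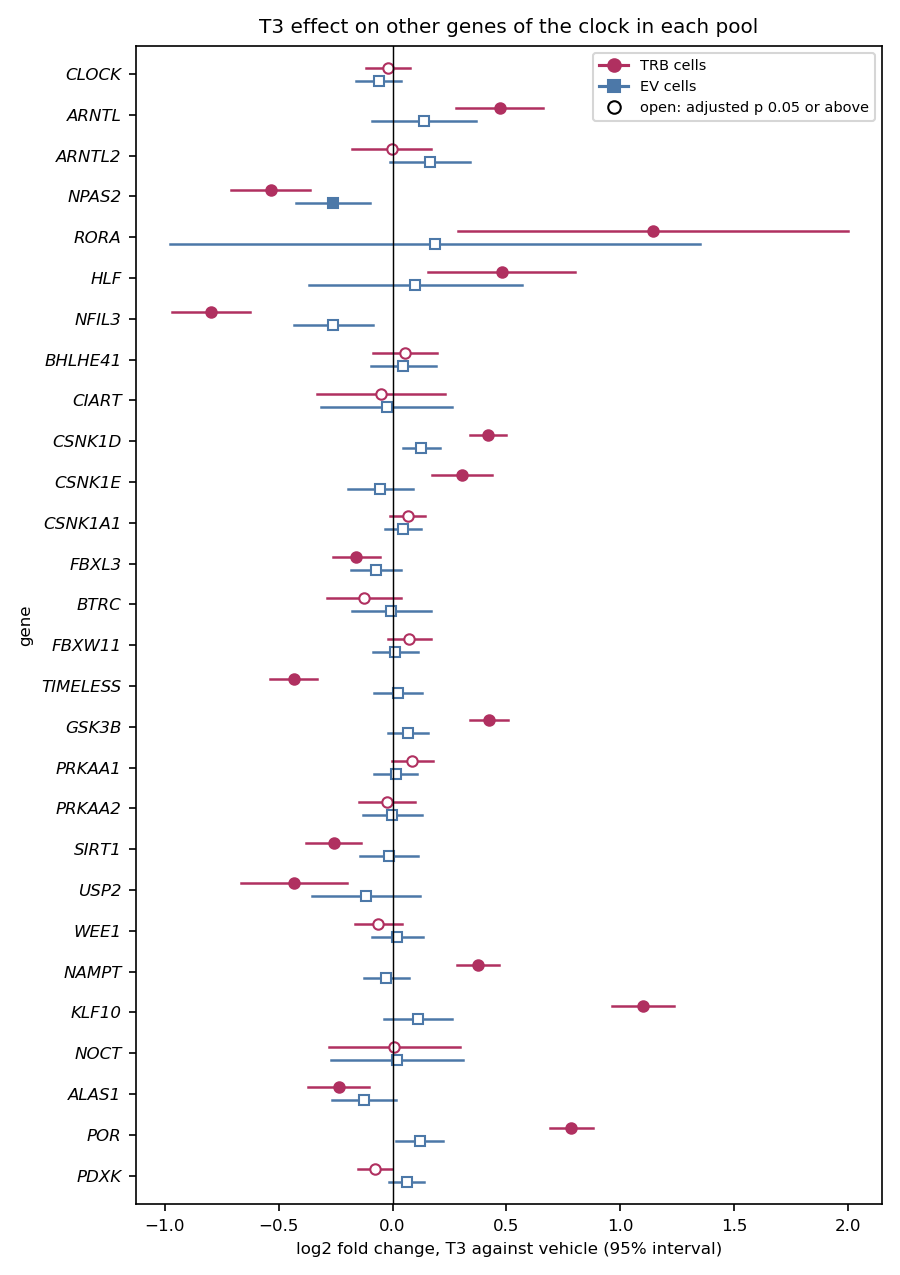
Log2 fold change of T3 against vehicle (x axis; 95% intervals as lines) for the 28 other clock genes that could be tested, in TRB cells (circles) and EV cells (squares), filled where the edgeR adjusted p is below 0.05. KLF10 and POR stand at 1.10 and 0.78 in TRB cells, NFIL3 at -0.80, and NPAS2 is the 1 filled square.

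For the 2 members with the widest range of group means, the most similar genes were sought by Pearson's r of log2 CPM over the 12 libraries, among 13985 genes with a mean of at least 1 CPM. DBP was closest to SULT1A2, a sulfotransferase gene (r = 0.963), TBRG4 (0.962) and VARS2, a mitochondrial valyl-tRNA synthetase gene (0.959), with 112 genes above 0.9. SULT1A2 averaged 2.83 CPM in EV vehicle, 8.40 in EV T3, 2.30 in TRB vehicle and 15.3 in TRB T3 libraries, the same order of groups as DBP apart from overlaps. PER1 was closest to SOCS3, a feedback inhibitor of cytokine signalling (r = 0.958), SOWAHB (0.955) and DUSP8, a phosphatase gene of MAP kinases (0.953), with 81 genes above 0.9. SOCS3 averaged 11.51 CPM in EV vehicle, 12.2 in EV T3, 13.4 in TRB vehicle and 7.10 in TRB T3 libraries, low in the same group as PER1. The 12 libraries form 4 groups that share treatment, depth and vector, so these values describe a common pattern over groups and carry no test.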

How the data were processed

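Libraries were made from total RNA with the NEBNext Ultra II RNA kit, per the labels' protocols. The submitters' processing notes name CASAVA 1.7, STAR 2.7, HTSeq 0.10, DESeq2 and build hg38; the annotation used and any strand setting are not given in the sources used here. For each library the authors deposited raw counts of whole reads by gene symbol. Their table of normalized values, deposited as whole numbers and treated here as a score, matched the counts over a single factor for each library to within 1 and was used for a check of the columns alone. Lines without a gene name held 31.9% to 39.2% of alignments and were left out. All 12 libraries entered a single model of 4 group means in edgeR 4.0.16 (limma 3.58.1, R 4.3.3), after filterByExpr with a minimum of 10 counts and 15 in total and TMM scaling. Contrasts were tested by robust quasi-likelihood on 8 residual degrees of freedom plus those borrowed across genes, and the intervals use that total. P-values were adjusted by Benjamini-Hochberg over 14549 genes and called below 0.05. CPM use TMM-scaled totals, SE was obtained from the log2 fold change and its F statistic, and intervals are 95%. The gene totals limit precision for low genes such as NR1D1, HLF and RORA; error terms cover the libraries measured.

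The genes, roles and tests were chosen with earlier results of these data known. The genes named were the 10 members, THRA and THRB, every activator and RORA, the 3 smallest p-values for T3 in TRB cells in each other role, and the 3 genes most like each of the 2 widest-ranging members. SPHK2 was named as an overlapping gene and KRT5, EGFR, CD14 and the like as markers. One gene of the lists is not reported here. Gene positions and exon overlaps came from GENCODE for GRCh38, and promoters from RefSeq (GRCh38.p14), where all 10 members matched by symbol. Alternatives changed the test (DESeq2 1.42.0), the scaling (RLE), the filter (none, or CPM above 1 in 3 libraries) and the model (only the groups compared, or a block for the replicate number). Others left out single libraries, thinned the counts to 4241863 per library, or removed a GC trend. The steps were tested on simulated data.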

Additional observations from a re-analysis of the deposited data

Results flagged for a closer look

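For 5 clock genes the T3 response differed between TRB and EV cells by the interaction term of the edgeR fit (TRB minus EV, log2 scale). The value was -0.81 for PER1 (adjusted p = 0.000286), with TRB T3 libraries at 7.09 to 7.51 CPM and every other library at 9.14 CPM or more. It was -0.41 for NR1D2 (adjusted p = 0.000127), where all 3 TRB T3 libraries lay below the TRB vehicle libraries and all 3 EV T3 libraries above the EV vehicle libraries. It was 0.24 for BHLHE40 (adjusted p = 0.0012), which started lower in TRB vehicle libraries and reached a like level with T3. It was 0.49 for DBP (adjusted p = 0.00957, and 0.0856 without EV vehicle replicate 1), which rose in both kinds of cell. It was 0.57 for NR1D1 (adjusted p = 0.0347), whose exons overlap those of THRA. That call was lost in 9 of 19 alternatives, more than for any other of the 5. The TRB T3 libraries also stood apart in THRB and KRT5, and the part of either in these differences was not tested.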

How the results depend on the processing

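Over 50 results for the members (10 genes in 5 comparisons), 990 alternative values were computed: 912 kept direction and side of the threshold, 27 lost a call, 16 gained one and 35 changed sign. The left-out libraries include those of groups outside a comparison, which barely move its value. For T3 in TRB cells DBP was 1.18 with and without EV vehicle replicate 1. The 912 is thus no measure of how firm the results are. Of 19 called member results 5 lost their call under some alternative: 3 of NR1D1, CRY1 between the vectors with T3, and the DBP interaction; none of the 19 changed sign. Called members for the vectors without T3 went from 1 to 2 (1 to 2 over left-out libraries) with the groups compared alone, the replicate block and thinned counts. Called other clock genes for T3 in EV cells went from 1 to 0 (0 to 2 over left-out libraries) under DESeq2, no filter and the replicate block. For the vectors without T3 they went from 4 to 2 (0 to 4 over left-out libraries) under DESeq2 and thinned counts. Causes of these moves were not tested. Over all genes, T3 in EV cells raised 413 and lowered 247, against 249 and 131 under DESeq2, 280 and 120 with thinned counts, 403 and 136 with no filter, and, leaving out single libraries, 180 and 95 (EV vehicle replicate 3), 280 and 116 (EV vehicle replicate 1) and 242 and 99 (EV T3 replicate 2). The replicate block gave 402 and 245 there. Between the vectors without T3, 1143 were higher and 1077 lower, against 724 and 809 under DESeq2 and 758 and 804 without EV vehicle replicate 3. That comparison gave 1265 and 1172 with the groups compared alone, 1132 and 1063 with the replicate block, and 799 and 803 with thinned counts. Replicate numbers did not pair libraries: over 18 same-numbered pairs r ran from -0.124 to 0.0835, with 0 above 0.1. The block otherwise raised the NR1D2 difference without T3 over the threshold (0.19, adjusted p = 0.0333) and lost NPAS2 in EV cells (-0.26, adjusted p = 0.0554).

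Signs changed only for values that the main test did not call. With the GC trend removed these were CLOCK (0.0150) and ARNTL2 (0.0316) for T3 in TRB cells, and PER1 (-0.0173), PER3 (0.0128), CRY1 (0.0204) and NAMPT (0.00583) in EV cells. With no filter they were ARNTL2 (8.33e-05) in TRB cells and PER3 (0.0132) and CRY1 (0.00317) in EV cells, with CPM above 1 PER3 (0.00169) in EV cells, and with the groups alone ARNTL2 (0.000457) in TRB cells. With thinned counts they were CRY1 (0.0998), CRY2 (0.0193), CIART (0.201) and TIMELESS (-0.0415) for T3 in EV cells, TEF (-0.0494), CRY2 (-0.102) and BHLHE40 (-0.0237) between the vectors with T3, and CRY2 (-0.181) in the interaction. Over left-out libraries, T3 in TRB cells gave ARNTL2 -0.0321 to 0.0497, CIART -0.129 to 0.00122 and CLOCK -0.0630 to 0.0152. T3 in EV cells gave CIART -0.146 to 0.102, CRY1 -0.0319 to 0.0128, CRY2 -0.241 to 0.0115, HLF -0.104 to 0.237, NAMPT -0.0617 to 0.0309, PER1 -0.0451 to 0.145, PER2 -0.00175 to 0.0846, PER3 -0.0282 to 0.0392, RORA -0.282 to 0.549, TEF -0.0415 to 0.196 and TIMELESS -0.0471 to 0.0573. Between the vectors without T3, CRY2 ran from -0.0215 to 0.131 and PER1 from -0.00658 to 0.181, and with T3 BHLHE40 ran from -0.00924 to 0.0636, CRY2 from -0.0472 to 0.205 and TEF from -0.0307 to 0.0811. The CRY2 interaction ran from -0.0865 to 0.166. Low counts limit NR1D1, HLF and RORA, and the calls of NR1D1 and HLF for T3 in TRB cells were lost with thinned counts.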

Other observations

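Ratios of counts between pairs of clock genes within a library do not depend on library scaling; the pairs were chosen with their values known, and the ratios carry no test. DBP to NFIL3, the activator and the repressor at the D-box, stood at 0.603 ± 0.138 in EV vehicle, 1.12 ± 0.128 in EV T3, 0.446 ± 0.0466 in TRB vehicle and 1.77 ± 0.126 in TRB T3 libraries (SD, n = 3). The ratio was 0.993 or more in all 6 T3 libraries and 0.759 or less in all 6 vehicle libraries. PER1 to PER2 stood at 0.322 ± 0.0687, 0.329 ± 0.0172, 0.328 ± 0.0349 and 0.158 ± 0.00839 in the same order, lower in all 3 TRB T3 libraries than in any other. NR1D1 to NR1D2 stood at 0.150 ± 0.00355, 0.119 ± 0.0107, 0.113 ± 0.00580 and 0.180 ± 0.0238.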
